A study of Mus musculus with 4 samples.

Results

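The levels of 10 mouse genes of the interleukin-1, tumour necrosis factor and inflammasome response were followed in single cells of the aorta: Il1b, Il1a, Il1rn, Il1r1, Il1r2, Tnf, Il6, Nlrp3, Ptgs2 and Nfkbia. They were taken by symbol from the 32285 genes of the matrices, where all 10 of 10 were present. The 4 samples were digested aortas run as droplet 3' single-cell libraries, with 1 library for each group. WT and LysM-DKO mice fed a normal diet made up the first pair of groups, WT normal and LysM-DKO normal, and WT/ApoE-/- and LysM-DKO/ApoE-/- mice fed a western diet the second pair, WT western and LysM-DKO western. Both western-diet groups lacked ApoE and both normal-diet groups had it, so diet and ApoE genotype cannot be told apart. LysM is the gene Lyz2, widely used to drive Cre in macrophages, monocytes and neutrophils, and the labels do not spell out DKO, although the title of the series names epsins. The labels give neither the age of the mice nor how many were pooled. With 1 library a group no test was possible: levels are UMIs summed over the barcodes of a cell class per 1000000 UMIs of that class (CPM), and every interval is an exact 95% interval that covers counting error only.

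Interleukin-1 is made by myeloid cells in an alpha form, Il1a, and a beta form, Il1b, that caspase-1 cuts once an inflammasome, such as the one built on the sensor Nlrp3, has assembled. Both forms bind the receptor Il1r1; the antagonist Il1rn occupies that receptor without signalling, and Il1r2 is a decoy that binds interleukin-1 and sends no signal. Interleukin-1 and tumour necrosis factor (Tnf) both activate NF-kB, which drives the cytokine Il6, the prostaglandin-forming enzyme Ptgs2 (cyclooxygenase-2) and its own inhibitor Nfkbia (IkB-alpha). Interleukin-1beta is a known driver of atherosclerosis, in which macrophages of the artery wall load with lipid and become foam cells.

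After removing barcodes below 1000 UMIs or with over 10% of mitochondrial counts, 7758 remained in WT normal, 8230 in LysM-DKO normal, 13744 in WT western and 8133 in LysM-DKO western. Macrophages, set by at least 5 UMIs of C1qa, C1qb and C1qc, numbered 92, 208, 939 and 135 barcodes in that order, and all 7 macrophage markers checked had UMIs in each library. Only 36, 75, 531 and 85 of these barcodes did not also meet the marker rule of another cell class. The macrophage class is thus mixed, and more so on normal diet. The libraries held 50662515 to 67450979 UMIs. WT western was the shallowest per kept barcode, with a median of 2103 UMIs against 3404 to 6761 elsewhere, and held 648 barcodes with 3 to 7 C1q UMIs against 4 to 37, so its macrophage class has many members near the threshold. Apoe was at 7012 and 5435 CPM in macrophages on normal diet and at 8.44 and 8.55 CPM on western diet, as the labels say. Epn1, 1 of the epsin genes, was at 81.7, 54.5, 52.4 and 42.7 CPM in macrophages. Epn2, another, was at 35.6, 33.6, 33.2 and 15.7 CPM (17, 37, 130 and 11 UMIs). A 3' count need not fall in a deleted part. Lyz2 was at 3696 and 4126 CPM in WT normal and WT western macrophages and at 977 and 798 CPM in LysM-DKO normal and LysM-DKO western. The normal-diet libraries carried Xist at 950 CPM and the western-diet libraries Ddx3y at 117 and 124 CPM, so sex too is tied to diet and cannot be told apart from it, and the file headers name Cell Ranger 6.0.1 for normal diet and 6.1.2 for western diet. Pairs of libraries shared 38 to 129 barcode sequences, at most 0.824% of the smaller library.

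The members differed in the cells that held their UMIs. Macrophages held 80.9% to 94.7% of the Tnf UMIs of each library, 71.0% to 89.6% of those of Nlrp3, 60.3% to 90.0% of those of Il1a and 61.8% to 69.9% of those of Il1rn. Il1b was spread over more myeloid barcodes: macrophages held 14.9%, 28.5%, 34.9% and 54.1% of its UMIs in WT normal, LysM-DKO normal, WT western and LysM-DKO western. A further 54.7%, 54.0%, 18.8% and 26.7% of the Il1b UMIs lay in the class set by the smooth muscle genes Myh11 and Cnn1. Barcodes of that class with at least 3 UMIs of the myeloid genes Tyrobp and Fcer1g, only 49, 79, 84 and 14 in number, held 353 of its 381, 570 of its 587, 296 of its 519 and 125 of its 132 Il1b UMIs. These barcodes carry genes of both cell types, and whether each held 1 cell was not tested. The remaining class of myeloid barcodes without C1q genes held 39.3% of the Il1b UMIs and 56.5% of the Il1r2 UMIs of WT western. The receptor Il1r1 lay mostly outside the myeloid cells, with 47.3% to 79.3% of its UMIs in smooth muscle and 11.1% to 24.1% in fibroblasts. Smooth muscle made up 47.6%, 42.4%, 64.3% and 81.6% of the kept barcodes and fibroblasts 4.61% to 9.13%. The smooth muscle share of Il1r1 is thus read beside the size of that class, and its level per UMI was higher in fibroblasts. Fibroblasts held 57.9%, 53.9%, 30.6% and 63.2% of the Il6 UMIs, more than any other class except in WT western, where smooth muscle held 37.4%, and Ptgs2 had 37.0%, 46.3%, 15.0% and 40.9% there. Nfkbia was found in every class, and smooth muscle, the most numerous class, held 48.2% to 71.2% of its UMIs.

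**Figure D1:**
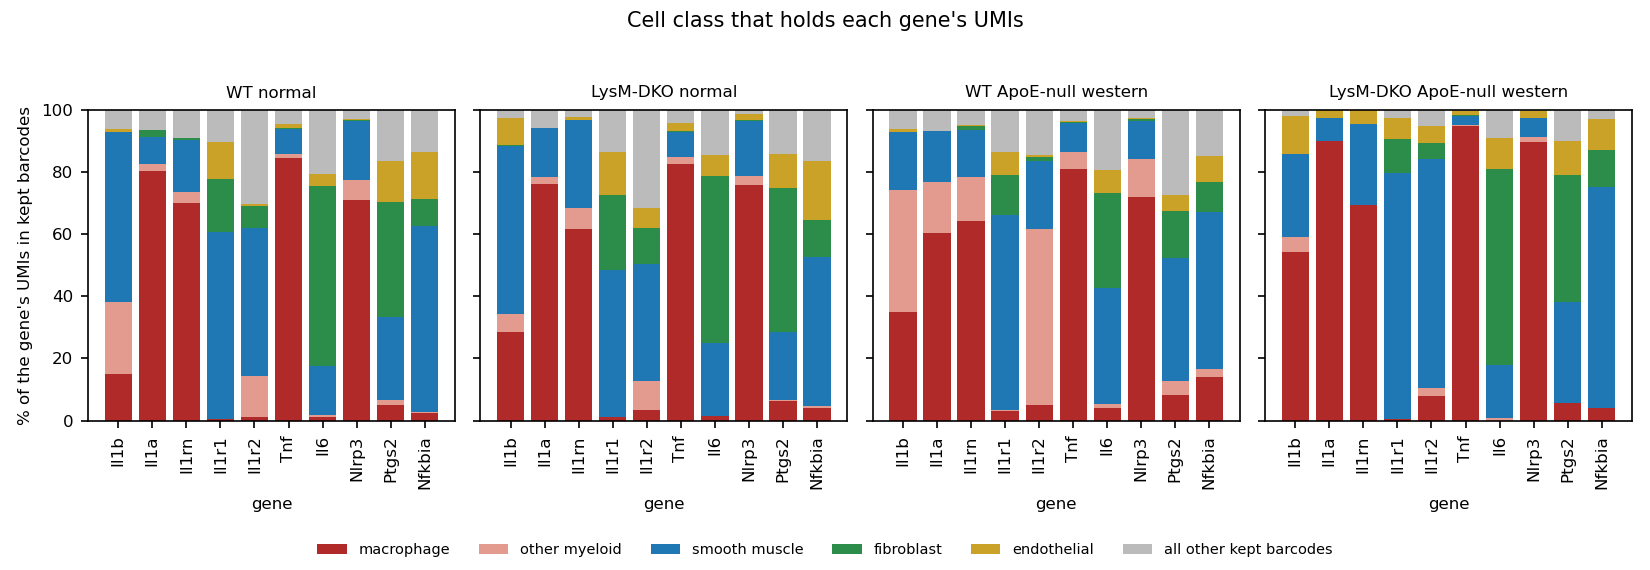
Share of each gene's UMIs (y axis, percent of its UMIs in kept barcodes) that lay in each cell class, for the 10 genes (x axis) in the 4 libraries. Tnf, Nlrp3, Il1a and Il1rn sit mostly in macrophages and Il1r1 and Nfkbia largely in smooth muscle, the class with the most barcodes. Il6 sits largely in fibroblasts, except in WT western, where smooth muscle held more.

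**Figure D2:**
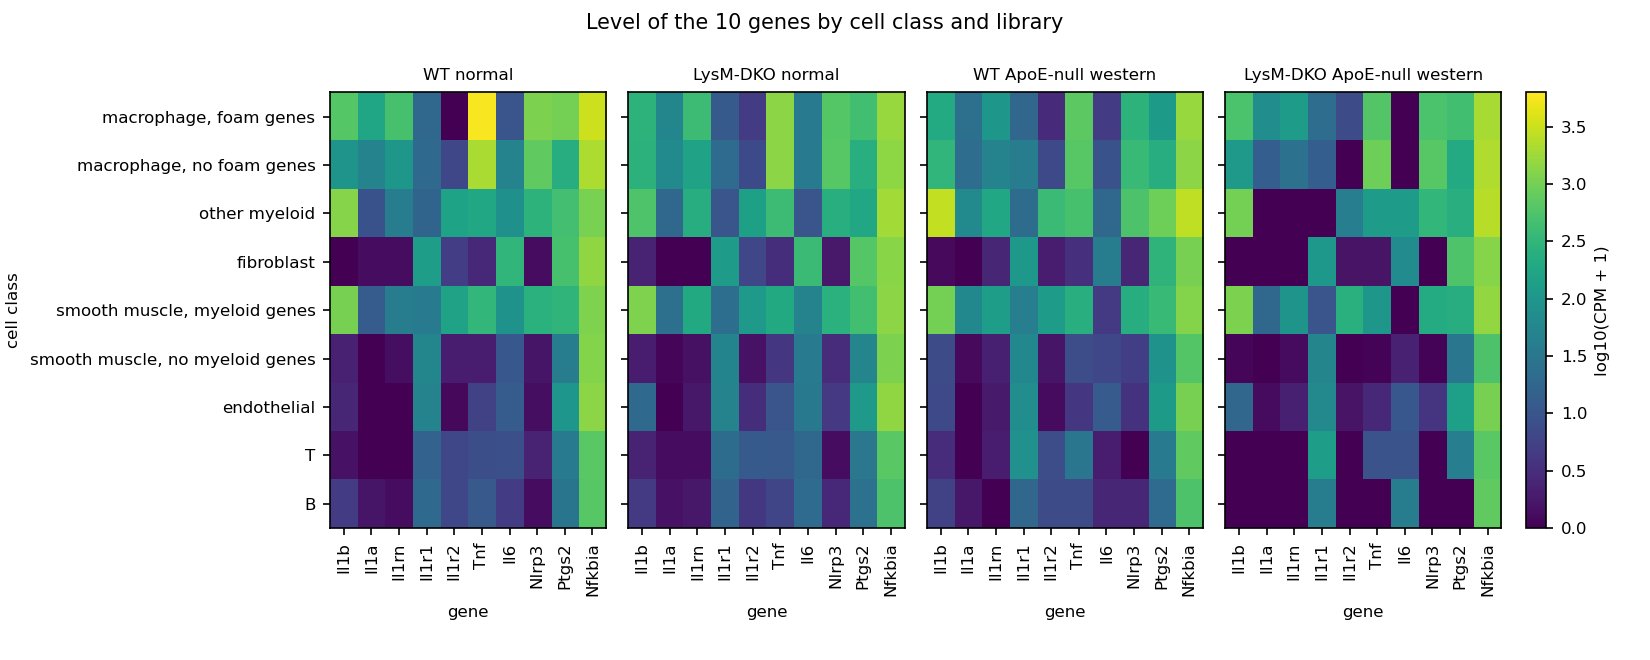
Level of the 10 genes (columns) in each cell class (rows) of each library, as log10 of CPM plus 1 by colour. The smooth muscle class is drawn as its barcodes with and without the myeloid genes Tyrobp and Fcer1g; classes range from 10 barcodes (other myeloid in LysM-DKO western) to 8752 (smooth muscle in WT western).

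In the genome (GRCm38) Il1b lies at chr2:129364570-129371139 and Il1a at chr2:129299610-129309972, both on the minus strand, and Il1rn at chr2:24336853-24351494 on the plus strand. Il1r1 lies at chr1:40225080-40317257, Il1r2 at chr1:40074079-40125231 and Ptgs2 at chr1:150100031-150108227, all on the plus strand. Tnf lies at chr17:35199381-35202007 (minus), Il6 at chr5:30013114-30019981 (plus), Nlrp3 at chr11:59541568-59566956 (plus) and Nfkbia at chr12:55489410-55492647 (minus). Antisense genes overlap Il1b (Il1bos), Il1a (Gm14023) and Il1r2 (Gm16894), and same-strand models overlap Il1r1 (Gm38070) and Il1r2 (Gm37347), so counts of the receptors may be split or merged with those models.

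The promoters of Il6, Ptgs2 and Nfkbia are shown because these 3 members had UMIs well outside the myeloid cells and carry the fibroblast comparison. Each is the 250 bases before the transcription start, 5′ to 3′ on the strand of the gene, from RefSeq on GRCm38.p6. All 10 members matched, with 14 start sites. Capitals mark letters that match the NF-kB consensus, AP-1 (TGANTCA) or C/EBP (TTGCNNAA), searched on both strands. The Il6 window is chr5:30012864-30013113 (plus), the Ptgs2 window chr1:150099781-150100030 (plus) and the Nfkbia window chr12:55492648-55492897 (minus).
Il6: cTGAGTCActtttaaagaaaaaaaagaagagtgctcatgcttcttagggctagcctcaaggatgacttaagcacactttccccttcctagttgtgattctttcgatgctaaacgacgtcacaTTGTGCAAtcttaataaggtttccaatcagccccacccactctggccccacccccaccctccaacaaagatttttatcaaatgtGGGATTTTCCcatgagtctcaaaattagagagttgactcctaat
Ptgs2: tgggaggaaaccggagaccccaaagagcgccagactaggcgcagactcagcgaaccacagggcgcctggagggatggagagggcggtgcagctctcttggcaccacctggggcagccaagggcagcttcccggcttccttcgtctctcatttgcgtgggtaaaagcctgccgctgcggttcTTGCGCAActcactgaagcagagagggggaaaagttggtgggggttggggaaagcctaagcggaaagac
Nfkbia: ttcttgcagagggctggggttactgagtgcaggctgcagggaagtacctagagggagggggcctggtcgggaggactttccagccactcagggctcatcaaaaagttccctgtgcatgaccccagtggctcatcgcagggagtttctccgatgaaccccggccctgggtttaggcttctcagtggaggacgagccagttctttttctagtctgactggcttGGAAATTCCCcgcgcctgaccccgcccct
The Il6 window held an AP-1 match starting 249 bases before the start, a C/EBP match at 128 bases and an NF-kB match at 44 bases. The Ptgs2 window held a C/EBP match at 69 bases, and the Nfkbia window an NF-kB match at 29 bases. Of the other members, Il1a had an AP-1 match at 12 bases and Il1rn at 141 bases in 1 of its windows, Il1r1 had a C/EBP match at 133 bases in 1 window and an NF-kB match at 232 bases in another, and Nlrp3 had an NF-kB match at 186 bases in 1 window. No match to these letters lay in the windows of Il1b, Il1r2 and Tnf, and none to CRE (TGACGTCA) in any of the 14. Of 32851 windows of 250 bases in the whole table, 7.25% held the NF-kB letters, 6.75% those of AP-1, 9.56% those of C/EBP and 1.55% those of CRE. A match is a description of the sequence and not evidence of binding.

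Among macrophages, the ligand Il1b stood at 218 CPM in WT normal (104 UMIs), 282 in LysM-DKO normal (310 UMIs), 246 in WT western (961 UMIs) and 382 in LysM-DKO western (268 UMIs). LysM-DKO western was the highest, with an interval of 338 to 430 CPM, which lay above those of the other 3 libraries. The level rested on few barcodes. Barcodes with 5 or more Il1b UMIs numbered 5 of 92, 10 of 208, 50 of 939 and 14 of 135, and they held 88.5%, 80.6%, 79.4% and 81.3% of the macrophage Il1b UMIs. In WT normal a single barcode held 63 of the 104 UMIs, and without the top barcode of each library the levels were 88.4, 233, 231 and 314 CPM. The LysM-DKO over WT log2 ratio on normal diet was then 1.42 in place of 0.37, and it was -0.48 with a C1q threshold of 3 and -0.81 without barcodes that met several class rules. On western diet the ratio was 0.64 (interval 0.44 to 0.83) and 0.43 without the top barcodes.

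Il1a, the alpha ligand, was at 77.5 CPM (37 UMIs), 60.9 (67 UMIs), 23.3 (91 UMIs) and 51.3 CPM (36 UMIs) in macrophages of WT normal, LysM-DKO normal, WT western and LysM-DKO western. WT western was the lowest, and its interval of 18.7 to 28.6 CPM did not overlap that of any other library. The antagonist Il1rn was at 195 CPM (93 UMIs), 217 (239 UMIs), 83.9 (328 UMIs) and 91.2 CPM (64 UMIs) in the same order. Both western libraries thus lay below both normal libraries, and the genotypes overlapped within each diet. The decoy Il1r2 had only 2, 6, 13 and 3 macrophage UMIs, or 3.32 to 5.45 CPM, too few to compare. Il1r2 was at 159, 144, 382 and 40.7 CPM in the other myeloid class, and at 153, 112, 121 and 256 CPM in the smooth muscle barcodes with myeloid genes. The 40.7 CPM of LysM-DKO western, from a class of 10 barcodes, lay below the 122 CPM that 3 counts would give there. The receptor Il1r1 was at 18.8 CPM (9 UMIs), 18.2 (20 UMIs), 24.5 (96 UMIs) and 18.5 CPM (13 UMIs) in macrophages, levels that overlapped throughout and lay below those of smooth muscle in the same libraries.

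Tnf was at 2953 CPM in macrophages of WT normal (1410 UMIs), 1385 in LysM-DKO normal (1525 UMIs), 686 in WT western (2682 UMIs) and 714 in LysM-DKO western (501 UMIs). WT normal was highest, LysM-DKO normal followed, and the western libraries were lowest and overlapped. Nlrp3, the inflammasome sensor, was at 825 CPM (394 UMIs), 646 (711 UMIs), 314 (1229 UMIs) and 576 CPM (404 UMIs). WT western was the lowest, and the intervals of the LysM-DKO libraries, 599 to 695 and 521 to 635 CPM, overlapped.

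Of the NF-kB targets, Ptgs2 was at 415 CPM (198 UMIs), 291 (320 UMIs), 157 (614 UMIs) and 368 CPM (258 UMIs) in macrophages of the same 4 libraries. WT western was again lowest, and LysM-DKO western overlapped WT normal. Nfkbia was at 2434 CPM (1162 UMIs), 1491 (1641 UMIs), 1526 (5969 UMIs) and 2102 CPM (1475 UMIs), so that the order of the genotypes was opposite on the 2 diets. Il6 was scarce in macrophages, at 39.8 CPM (19 UMIs), 35.4 (39 UMIs), 5.11 (20 UMIs) and 0 UMIs; the last count allows up to 4.27 CPM (3 counts). In WT western its 20 UMIs lay in 20 barcodes, with 1 each.

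**Figure D3:**
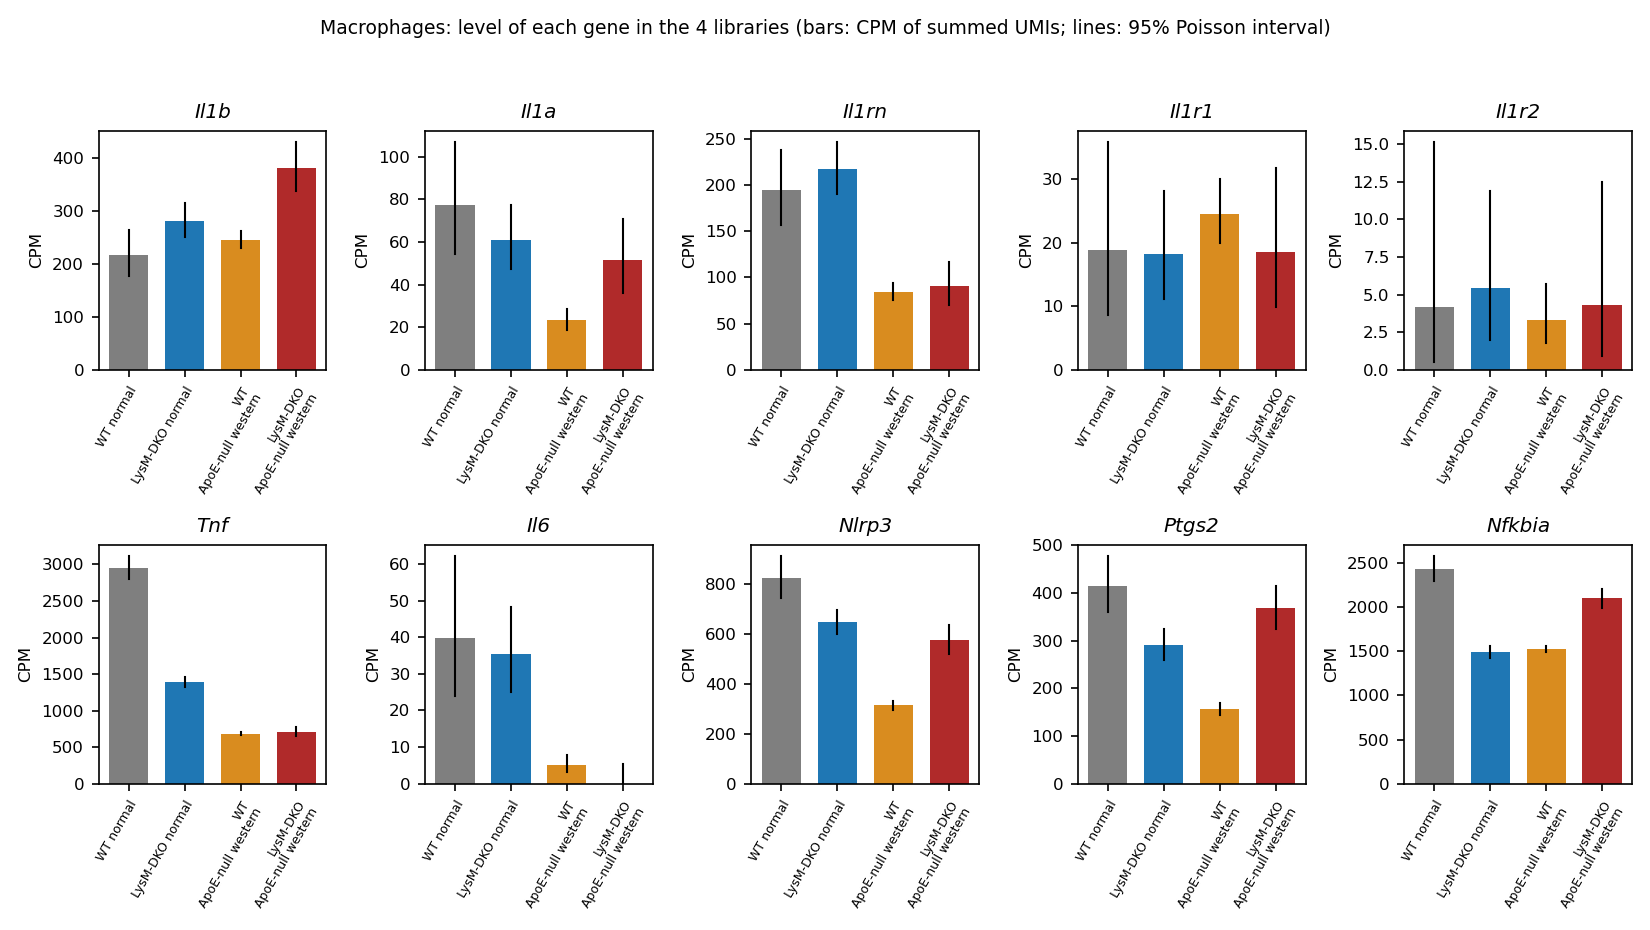
Level of each of the 10 genes in macrophages (y axis, CPM, from 0) in the 4 libraries (x axis); bars are CPM of summed UMIs and lines are exact Poisson 95% intervals for counting error. Tnf is highest in WT normal at 2953 CPM, whereas Il1a, Nlrp3 and Ptgs2 are lowest in WT western, at 23.3, 314 and 157 CPM.

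On normal diet, where both groups had ApoE, LysM-DKO was compared with WT. LysM-DKO macrophages carried less Tnf, 2.13-fold lower (log2 ratio -1.09, interval -1.20 to -0.99), and less Nfkbia (-0.71, -0.82 to -0.60), Ptgs2 (-0.51, -0.77 to -0.25) and Nlrp3 (-0.35, -0.53 to -0.17). The intervals of Il1a, Il1rn, Il1r1 and Il6 included equal levels. Of the 9 members with at least 20 UMIs over both libraries, 0 were past 2 fold higher and 1, Tnf, past 2 fold lower. Over all 7068 features with as many UMIs, 6.55% were past 2 fold higher and 2.39% past 2 fold lower. The median log2 ratio of the members was -0.35, beside 0.05 over all features. Tnf lay between -1.29 and -0.75 across the 10 alternatives run, and weighting each barcode equally left no member past 2 fold. The summed level of 17 genes that tissue digestion induces was also lower, at 13877 CPM against 17487, and its part in the result was not tested.

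On western diet, where both genotypes lacked ApoE, Ptgs2, Nlrp3 and Nfkbia were higher in LysM-DKO, the opposite order to normal diet; the difference between the diets was not tested. LysM-DKO macrophages carried more Ptgs2, 2.34-fold (log2 ratio 1.23, interval 1.01 to 1.44), more Il1a, 2.22-fold (1.15, 0.54 to 1.71), more Nlrp3 (0.87, 0.71 to 1.04), Il1b (0.64) and Nfkbia (0.46, 0.38 to 0.54). Tnf differed by 0.06 (-0.08 to 0.20) and Il1rn by 0.13 (-0.29 to 0.51), intervals that included equal levels. Of 9 members, 2 were past 2 fold higher, Il1a and Ptgs2, where 4.1% of 10418 features were. Past 2 fold lower was 1, Il6, where 9.1% of the features were, but this rests on 0 UMIs against 20; at the limit of 3 counts Il6 was at least 1.20-fold lower, and the lower count is then 0. The median of the members was 0.46, with Il6 at either value, beside -0.05 over all features. With a C1q threshold of 10, which keeps 592 and 130 barcodes, no member was past 2 fold: Ptgs2 was at 0.85, Il1a at 0.76 and Il1b at 0.12. Leaving out barcodes that met several class rules gave Ptgs2 0.92 and Il1a 0.80. The stress genes moved the same way, at 11445 CPM in LysM-DKO against 8787 in WT. Smooth muscle markers in the macrophage class, all 4 of 4 detected, summed to 5238 and 8695 CPM, and fibroblast markers, 4 of 4, to 358 and 1708 CPM. The part of each in the result was not tested.

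Western diet with ApoE loss against normal diet went with lower levels of most members in WT. Il6 was 7.79-fold lower in WT western macrophages (log2 ratio -2.96), Tnf 4.31-fold (-2.11), Il1a 3.36-fold (-1.75), Ptgs2 2.65-fold (-1.40), Nlrp3 2.63-fold (-1.39) and Il1rn 2.33-fold (-1.22, and -0.76 to -1.47 across the 10 alternatives run). Those 6 of 9 members were past 2 fold lower and 0 past 2 fold higher, where 8.71% of 10342 features were lower and 21% were higher. Macrophage Il6 was near the level of smooth muscle without myeloid genes in WT western and LysM-DKO normal, and above it in WT normal. Fibroblast Il6 was also lower on western diet, and the part of free RNA in the macrophage ratios of Il6 was not tested. The median of the members was -1.39 beside 0.25 over all features, and relative to that median Tnf stood at -2.35 and Nfkbia, whose own ratio was -0.67, at -0.92. Il1b did not share the pattern: its ratio was 0.17 (-0.12 to 0.48), and 1.41 without the top barcode of each library or -0.87 with a C1q threshold of 3. In LysM-DKO the same comparison gave Il1rn 2.37-fold lower (-1.24) and Il6 at 0 UMIs against 39, at least 8.29-fold lower at the limit of 3 counts. Tnf was 1.94-fold lower (-0.96), whereas Nfkbia (0.50), Il1b (0.44) and Ptgs2 (0.34) were higher. Of 9 members, 0 were past 2 fold higher, where 7.11% of 7668 features were, and 2 past 2 fold lower, Il1rn and Il6, where 6.46% were; the median was -0.17 beside 0.10. Other genes moved in the same comparison. The stress genes were lower too, at 8787 CPM in WT western against 17487 in WT normal, with 7 of 17 past 2 fold lower, and at 11445 against 13877 CPM in LysM-DKO. In WT the smooth muscle markers of the macrophage class were higher, at 8695 CPM against 4457, and the fibroblast markers at 1708 against 452 CPM, and in LysM-DKO they were at 5238 against 4582 and 358 against 297 CPM. The part of each in the result was not tested. The genotype and diet comparisons share libraries, so that WT western, the lowest for Il1a, Nlrp3 and Ptgs2, enters more than 1 of them.

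**Figure D4:**
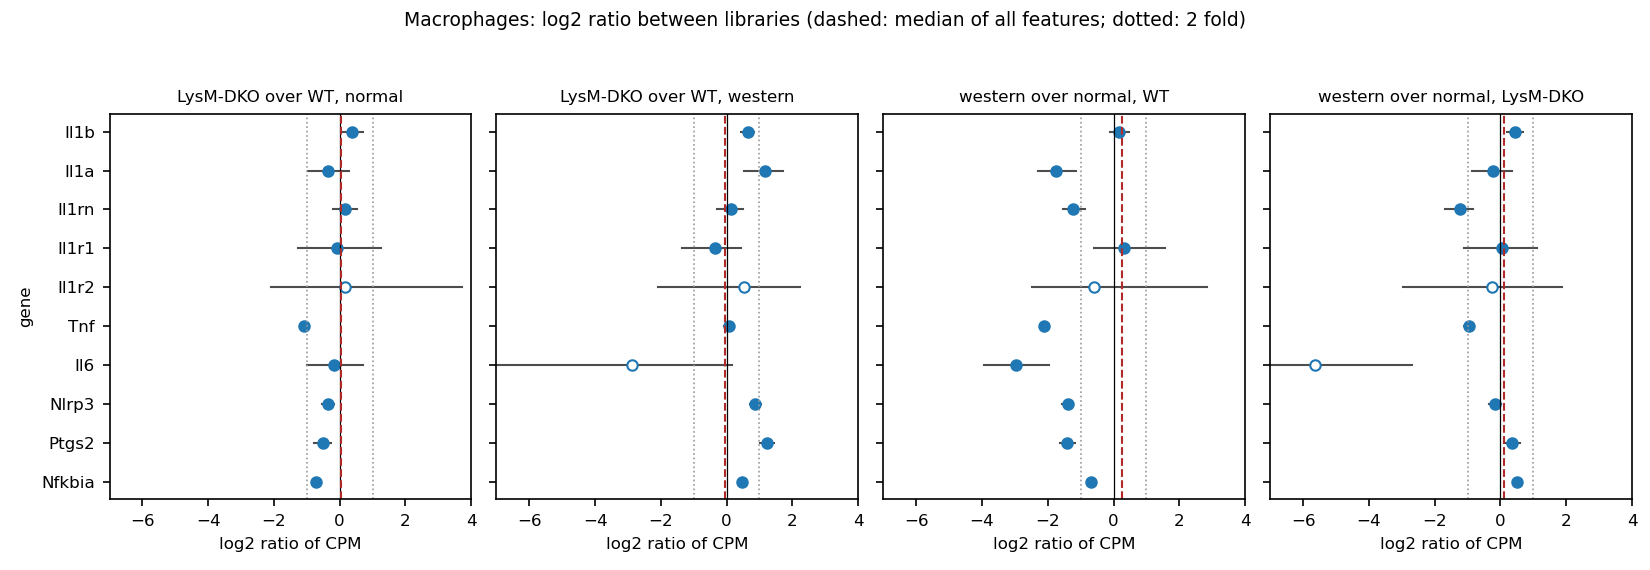
Log2 ratio of the macrophage level of each gene (points) in the 4 comparisons of libraries, with exact 95% intervals for counting error cut at the edge of the axis; open points have under 20 UMIs or 0 UMIs in 1 library. In WT, western over normal, 6 genes lie below the dotted 2 fold line, and on western diet Il1a and Ptgs2 lie above it.

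Macrophages were split by the foam genes Gpnmb, Trem2 and Mmp12 (at least 2 UMIs in sum), which on western diet gave 503 and 436 barcodes with and without foam genes in WT and 66 and 69 in LysM-DKO. The split uses raw UMIs and so also divides by depth. Median UMIs with and without foam genes were 4103 and 1926 in WT and 5729 and 3077 in LysM-DKO. Ratios of barcodes with over without foam genes inside a library were not recomputed under the alternatives. Il1b and Ptgs2 were placed differently in the 2 genotypes. In WT western Il1b was at 208 CPM in barcodes with foam genes and 316 in those without (log2 ratio -0.61, -0.79 to -0.42), whereas in LysM-DKO western it was at 520 and 113 CPM (2.18, 1.62 to 2.83). Ptgs2 was at 117 and 231 CPM in WT (-0.98) and at 449 and 210 CPM in LysM-DKO (1.09). Il1rn was higher with foam genes in both, at 102 against 49.8 CPM in WT and 125 against 25.2 CPM in LysM-DKO. Il1a followed Il1b in LysM-DKO, at 71.2 CPM (33 UMIs) against 12.6 (3 UMIs), and was even in WT at 24.0 and 22.0 CPM. Tnf and Nlrp3 differed less, Tnf at 700 and 660 CPM in WT and 611 and 914 CPM in LysM-DKO, Nlrp3 at 283 and 372 and at 533 and 658 CPM.

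Within the foam-gene barcodes of western diet, LysM-DKO over WT was 1.33 for Il1b (interval 1.10 to 1.55), 1.94 for Ptgs2 (1.68 to 2.20), 1.58 for Il1a (0.91 to 2.21), 0.91 for Nlrp3 and -0.19 for Tnf. Across the 12 alternatives run, Il1b lay between 0.94 and 1.55, Ptgs2 between 1.57 and 2.36 and Il1a between 1.26 and 1.85. Without foam genes the ratio of Il1b was -1.46 (-2.10 to -0.92), and from -2.15 to -0.28 across the 12; it rests on 27 UMIs in LysM-DKO. Ptgs2 there was at -0.13 (-0.60 to 0.29), Tnf at 0.47 and Nlrp3 at 0.83. The values of Tnf and Nlrp3 depended on the class rule: Tnf was at -0.25 both with a C1q threshold of 10 and without barcodes that met several class rules, and Nlrp3 at 0.047 and 0.20. These are values of 1 library each, and the difference between the foam-gene and other barcodes was not tested. Macrophages near the foam threshold, with a sum of 1 or 2, numbered 276 in WT western and 33 in LysM-DKO western. On normal diet barcodes with foam genes numbered 13 and 35, and 63 of the 70 Il1b UMIs of the 13 were in 1 barcode, so the split is not compared there.

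Barcodes were thinned to 1000 UMIs each to compare the share with a message at equal depth. Tnf was then found in 59.8%, 49.0%, 28.6% and 43.0% of macrophages of WT normal, LysM-DKO normal, WT western and LysM-DKO western, against 76.1%, 68.8%, 47.2% and 74.8% before thinning. Nlrp3 was found in 41.3%, 34.6%, 20.4% and 43.7%, and Nfkbia in 79.3%, 67.8%, 60.9% and 77.8%. For these 3 genes WT western had the smallest share. Il1b was found in 6.52% (2.43% to 13.7%), 9.62% (5.97% to 14.5%), 10.1% (8.26% to 12.2%) and 12.6% (7.51% to 19.4%), intervals that overlapped, against 13.0%, 19.7%, 18.2% and 28.1% before thinning. Smooth muscle barcodes without the myeloid genes Tyrobp and Fcer1g, which should lack these messages, gave the background: 0.0824%, 0.205%, 1.05% and 0.0302% for Il1b and 0.137%, 0.440%, 1.29% and 0.0302% for Tnf. The whole smooth muscle class gave 0.461%, 1.12%, 1.20% and 0.121% for Il1b, and its barcodes with myeloid genes 28.6%, 40.5%, 16.7% and 42.9%. Median UMIs were 4709, 4715, 2796 and 4025 in macrophages and 6229, 3616, 2223 and 6975 in smooth muscle without myeloid genes. The background was highest in WT western.

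Some members were found together in WT western, the only library with many Il1b barcodes after thinning. Of its 95 macrophages with Il1b, 60% (49.4% to 69.9%) also had Tnf, against 25.1% (22.2% to 28.2%) of the other 844. Nlrp3 was in 47.4% against 17.4%, Ptgs2 in 25.3% against 8.18% and Il1a in 8.42% against 1.54%, and Nfkbia in 73.7% against 59.5%. Il1rn overlapped, at 9.47% (4.42% to 17.2%) against 5.69% (4.22% to 7.47%). Il1r1, Il1r2 and Il6 were each in 1 of the 95 barcodes, against 28, 0 and 9 of the 844. Thinning evens out depth only. In WT western, macrophages with 5 or more Il1b UMIs before thinning had a median of 41 C1q UMIs, against 14 in the others. Their smooth muscle markers summed to 3095 against 9154 CPM. The part of these differences in the shares was not tested. In LysM-DKO western, with 17 Il1b barcodes, Tnf was in 58.8% against 40.7% and Nlrp3 in 58.8% against 41.5%, and the intervals overlapped. In LysM-DKO normal Tnf went the other way, in 30% of 20 barcodes with Il1b against 51.1% of 188 others, intervals that also overlapped. In WT normal only 6 barcodes had Il1b.

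The barcodes with 5 or more Il1b UMIs also differed in monocyte genes on western diet. Ccr2, Plac8 and Ly6c2 summed to 267 CPM in the 50 such macrophages of WT western and 46.8 CPM in the other 889. In LysM-DKO western they summed to 183 and 18.1 CPM, and Plac8 was at 0 in macrophages. All of the 183 CPM was Ccr2, so Ly6c2 was at 0 in those barcodes too, whereas Ccr2 made up 11.5 of the 18.1 CPM. On normal diet, with 5 and 10 such barcodes, the sums were 24.7 against 25.2 CPM in WT and 119 against 101 CPM in LysM-DKO. The foam genes, in sum, were lower in these barcodes on western diet, at 881 against 2577 CPM in WT and 1522 against 2147 CPM in LysM-DKO, although in LysM-DKO western Il1b was higher in the barcodes with a foam gene sum of at least 2. Ccr2, the chemokine receptor of recruited monocytes and part of these monocyte sums, was at 122 against 21.6 CPM in WT western. In LysM-DKO western it was at 183 against 11.5 CPM. Mrc1, a receptor of resident macrophages, was at 209 against 256 CPM in WT western and at 64.7 against 857 CPM in LysM-DKO western. Neutrophil markers summed to 16.9 against 20.2 CPM in WT western and 43.2 against 21.3 CPM in LysM-DKO western. Over all macrophages 2 or 3 of the 5 neutrophil markers had UMIs, S100a8 among them in every library, and S100a9 and Retnlg were at 0 in all 4. In the barcodes with 5 or more Il1b UMIs the 4 dendritic markers summed to 40.5 CPM in WT western and 75.5 CPM in LysM-DKO western. In the other macrophages of those libraries they summed to 10.5 and 4.92 CPM. The monocyte, neutrophil and dendritic sums of LysM-DKO western come from only 14 such barcodes and few UMIs. The part of these cell types in the Il1b level was not tested.

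Fibroblasts, set by Pdgfra and Serpinf1, numbered 628, 751, 634 and 654 barcodes. Il6 was at 320 CPM in WT normal (911 UMIs), 385 in LysM-DKO normal (1410 UMIs), 39.6 in WT western (155 UMIs) and 66.2 in LysM-DKO western (220 UMIs). Both western libraries lay far below both normal libraries, 8.05-fold in WT (log2 ratio -3.01, interval -3.27 to -2.77) and 5.80-fold in LysM-DKO (-2.54, -2.75 to -2.33). Across the 10 alternatives run these ratios lay between -3.15 and -2.19 and between -2.70 and -2.22. LysM-DKO was higher than WT on each diet, by 0.26 (0.14 to 0.39) on normal and 0.74 (0.44 to 1.05) on western. Il6 came from a minority of barcodes, 169 of 628, 221 of 751, 78 of 634 and 104 of 654 having a UMI.

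Ptgs2 in fibroblasts was at 498 CPM (1418 UMIs), 636 (2329 UMIs), 291 (1136 UMIs) and 563 CPM (1870 UMIs) in the same order, so that WT western was lowest. The genotypes differed by 0.35 (0.26 to 0.45) on normal and 0.95 (0.85 to 1.06) on western diet, with LysM-DKO the higher. Western over normal was -0.78 in WT and -0.18 in LysM-DKO, the latter -1.01 with each barcode weighted equally. Nfkbia was at 1497, 1331, 1038 and 1296 CPM, with WT western lowest again. The receptor Il1r1 was even, at 127, 119, 106 and 105 CPM, and its intervals overlapped between the genotypes of each diet. The sum of the 17 digestion stress genes in fibroblasts followed the order of Nfkbia, at 20149, 17438, 11093 and 15112 CPM, and its part in these results was not tested. Macrophage markers summed to 10.8 to 30.4 CPM in fibroblasts and smooth muscle markers to 5161 to 7863 CPM.

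**Figure D5:**
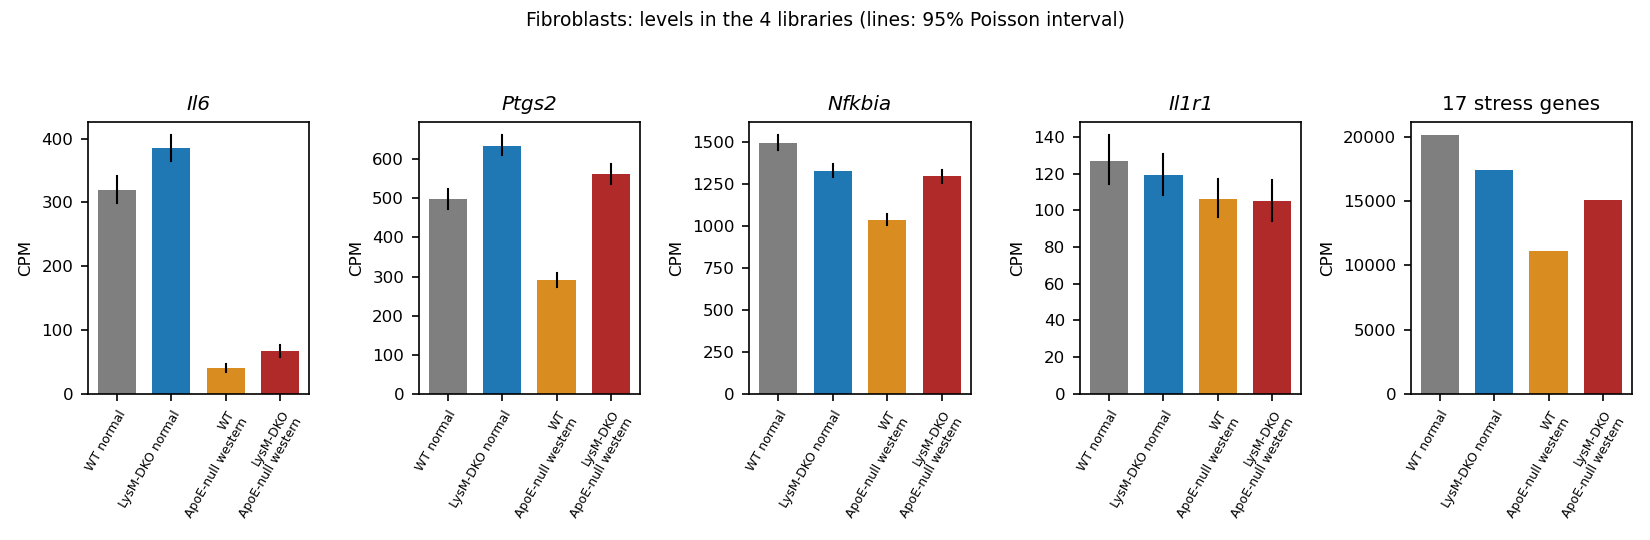
Levels in fibroblasts (y axes, CPM, from 0) of Il6, Ptgs2, Nfkbia and Il1r1 with exact Poisson 95% intervals, and of 17 digestion stress genes summed, in the 4 libraries (x axes). Il6 is at 39.6 and 66.2 CPM in the western libraries against 320 and 385 CPM in the normal ones, while Il1r1 stays between 105 and 127 CPM.

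In fibroblasts 5 members had at least 20 UMIs between the genotypes on normal diet and 4 on western diet, and 0 were past 2 fold in either direction. Over all features, 2.71% were higher and 1.57% lower on normal diet, and 3.11% higher and 3.7% lower on western diet. Western over normal, 1 of 4 members, Il6, was past 2 fold lower in WT and 2 of 5, Il6 and Il1r2, in LysM-DKO, the latter from 2 UMIs against 20. Of all features, 7.72% were lower and 9.59% higher in WT, and 5.63% lower and 5.93% higher in LysM-DKO, and 0 members were higher. Il1b, Il1a, Il1rn, Nlrp3 and Tnf had 0 to 9 UMIs in fibroblasts of each library.

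Smooth muscle barcodes without the myeloid genes numbered 3641, 3408, 8752 and 6622. Nfkbia there was at 1224, 1134, 612 and 543 CPM, lower in both western libraries than in both normal libraries. Il6 was at 9.65, 35.2, 5.51 and 1.23 CPM and Ptgs2 at 40.2, 52.2, 85.2 and 30.3 CPM, so that WT western was the highest for Ptgs2 here and the lowest in fibroblasts and macrophages. Macrophages had Il6 at 35.4 CPM in LysM-DKO normal and 5.11 CPM in WT western, near these smooth muscle levels. In WT normal the macrophage level of Il6 was the higher. Il1r1 was nearly even at 55.1, 50.8, 58.8 and 51.9 CPM. The stress genes of the whole smooth muscle class summed to 22357, 16889, 12689 and 13897 CPM. The class set by the endothelial genes Pecam1 and Cdh5 was mixed: of its 732, 880, 394 and 417 barcodes only 138, 249, 63 and 51 met no other class rule, and its smooth muscle markers summed to 17754 to 25731 CPM against 553 to 1244 CPM for its endothelial markers. It had Nfkbia at 1392, 1498, 1065 and 1039 CPM, Ptgs2 at 99.9, 108, 115 and 140 CPM, Il1r1 at 48.7 to 71.8 CPM, highest in WT western, and Il6 at 11.8, 33.6, 11.2 and 9.85 CPM. Without the barcodes of several class rules the western over normal log2 ratio of Ptgs2 in WT was -1.02 in place of 0.20 and that of LysM-DKO over WT on western diet 1.07 in place of 0.29. That of Il1r1 was -0.13 in place of 0.56 for western over normal in WT. Il1b in this class was at 1.58, 18.7, 5.91 and 16.9 CPM, at most 95 UMIs.

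In T cells Il1r1 was at 14.7 CPM (53 UMIs), 20.8 (59 UMIs), 82.3 (82 UMIs) and 132 CPM (16 UMIs), higher on western diet, where LysM-DKO had only 33 T cell barcodes. The 4 fibroblast markers summed to 201, 412, 1165 and 993 CPM in T cells in the same order, and Pdgfra alone to 8.57, 10.6, 16.1 and 99.3 CPM, and their part in the Il1r1 level was not tested. Over the classes, fibroblasts had the highest Il1r1 level in WT normal, LysM-DKO normal and WT western. In LysM-DKO western the T cell interval, 75.7 to 215 CPM, overlapped that of fibroblasts, 94.3 to 117 CPM. Smooth muscle and endothelial cells came next on normal diet, with near levels, and macrophages and B cells were among the lowest. B cells had Il1r1 at 19.0, 15.1, 17.2 and 39.8 CPM, the last from 2 UMIs. The 4, 1, 45 and 10 Il1b UMIs of neutrophils came from 2, 1, 4 and 1 barcodes, too few to describe a level.

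Several other genes of the inflammasome were lower in LysM-DKO macrophages on normal diet and several were higher on western diet. Of 12 inflammasome genes, 9 had enough UMIs on normal diet, where 0 were past 2 fold higher and 3 lower in LysM-DKO (the inflammatory caspases Casp1 and Casp4 and the DNA sensor Aim2). On western diet 4 of 11 were higher (Casp1, Nlrc4, P2rx7 and Mefv) and 0 lower. P2rx7, the ATP-gated channel that triggers Nlrp3, was at 75.5 CPM in LysM-DKO western (53 UMIs) against 17.6 in WT western (69 UMIs), a log2 ratio of 2.10 (1.55 to 2.64), and Mefv, the sensor pyrin, at 32.8 against 8.95 CPM (1.88). Western over normal in WT, 1 of 11 was higher and 5 lower, P2rx7 by a log2 ratio of -2.88 and Casp4 by -1.81, and in LysM-DKO 2 of 10 were higher and 0 lower. Over all features with enough UMIs the shares past 2 fold were 6.55% higher and 2.39% lower between genotypes on normal diet, 4.1% and 9.1% on western diet, 21% and 8.71% for western over normal in WT and 7.11% and 6.46% in LysM-DKO; the counts of each list are read against them. The medians of the list were -0.67, 0.55, -0.95 and 0.16 in the 4 comparisons, beside 0.05, -0.05, 0.25 and 0.10 over all features. Counts and medians of this and the following lists were not recomputed under the alternatives. For the members, a C1q threshold of 10 left none past 2 fold between genotypes on western diet. The higher smooth muscle and fibroblast markers of WT western macrophages apply to the lists too, and their part was not tested.

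Of 15 interleukin-1 family genes, LysM-DKO over WT on western diet gave 2 of 11 higher, the cytokine Il18 at 34.2 against 11.2 CPM (log2 ratio 1.62) and its inhibitor Il18bp at 57.0 against 25.8 CPM (1.15), and 1 lower, Il33, from 0 UMIs against 25. On normal diet 0 of 8 were higher and 1 lower, Il1rap (11 UMIs against 10). Western over normal 2 of 11 were higher in WT, Irak4 and Il18bp (1.46, interval 0.22 to 3.53, from 101 UMIs against 4). That is near the 21% of all features that were higher, and 1 gene was lower, Tollip (-1.45). In LysM-DKO 2 of 9 were higher, Irak2 and Il18bp (2.23, from 40 UMIs against 13), and 0 lower, where 7.11% of all features were higher. Of 14 genes of TNF signalling, on western diet 2 of 14 were higher in LysM-DKO, Tnip3 at 125 against 44.5 CPM and the ubiquitin ligase Birc3 at 82.6 against 40.1 CPM (1.05), and 0 lower. On normal diet 0 of 13 were higher and 1 lower, Tnip3 (-1.07). Western over normal in WT gave 0 of 14 higher and 3 lower, Birc3 (-1.33), Tnip3 and the caspase-8 inhibitor Cflar (-1.63), and in LysM-DKO 2 higher and 2 lower. Of 13 NF-kB genes, 1 was higher in LysM-DKO on each diet, Bcl3 (1.04) on normal and Nfkbid (1.09) on western, and 0 lower. Where 6.55% and 4.1% of all features were higher, 1 of 13 says little about the list. Western over normal 2 of 13 were lower in WT, Nfkb1 (-1.22) and the inhibitor Nfkbib (-1.90), with 0 higher, and 0 in either direction in LysM-DKO.

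The prostanoid list of 14 genes gave 1 of 10 lower in LysM-DKO on normal diet, Alox5, and 0 higher. On western diet 2 of 11 were higher, Ptgs1 at 41.3 against 20.5 CPM (1.03) and Alox5, and 1 lower, Ptges2, from 1 UMI against 25. Western over normal in WT 5 of 11 were lower, among them the prostaglandin-degrading Hpgd (-2.13) and the receptor Ptger4 (-1.44), and 1 higher, and in LysM-DKO 0 of 10 in either direction. Of 7 Toll-like receptor genes 6 had enough UMIs, and 1 was lower in LysM-DKO on normal diet, Tlr2 (-1.02), and 1 higher on western diet, Tlr7 (1.03), with 0 past 2 fold in the diet comparisons. Of 8 IL-6 pathway genes, 0 of 7 were past 2 fold between genotypes on normal diet and 1 of 8 was higher on western diet (Lif). Western over normal, 1 of 7 was higher in WT and 0 of 8 in LysM-DKO. The 1 in WT was Osmr (1.04, interval 0.05 to 2.48), from 126 UMIs against 7. The 17 stress genes gave 0 past 2 fold between genotypes on either diet, 7 lower western over normal in WT and 2 lower in LysM-DKO, with Hspa1b at -3.13 and -2.08. Of all features, 2.39% were lower in LysM-DKO on normal diet and 4.1% higher on western diet. For western over normal in WT 21% were higher and 8.71% lower. A single gene thus says little about a list of this size. The lists were chosen with earlier results of these data known.

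The genes whose level was most like that of Il1b over 29 pairs of library and cell class with at least 50 barcodes, among 6262 genes, were Clec4n (Pearson r 0.97), Clec4e (0.96), Tnip3 (0.96), Tbc1d9 (0.95) and Havcr2 (0.94). Clec4n and Clec4e code for myeloid C-type lectin receptors. Clec4n was at 34.2 and 75.5 CPM in foam-gene macrophages of WT western and LysM-DKO western and at 0 in fibroblasts. For Il1r1 they were Epha3 (0.93), Col15a1 (0.93), Nr2f2 (0.92), Prrx1 (0.92) and Glis2 (0.91), and Epha3 was at 131 to 169 CPM in fibroblasts. For Nfkbia they were Zmiz1 (0.93), Maff (0.92), Ptpn12 (0.91), Cdkn1a (0.90) and Jdp2 (0.88), and Maff was at 104 to 190 CPM in fibroblasts. The correlations are on log2(CPM + 10) and describe pairs that share libraries, depth and free RNA.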

How the data were processed

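Aorta cells were run on the 10x 3' v3.1 chemistry, per the labels' protocols. The deposited matrices hold UMI counts per gene and barcode, unnormalized, and the authors' filtering of barcodes is not given in the sources used here. Per the submitters' processing notes, Cell Ranger 6.1.2, Seurat 4.1.0 and mm10 were used, and the file headers of the normal-diet libraries name Cell Ranger 6.0.1. Reads on a gene and its antisense partner are told apart only as far as that counting used strand.

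Here the counts were filtered (at least 1000 UMIs, at most 10% mitochondrial) and each barcode took the first class whose rule it met: macrophage, B (Cd79a and Ms4a1, at least 2 UMIs), T (Cd3d, Cd3e and Trac, 2), endothelial (Pecam1 and Cdh5, 2), fibroblast (Pdgfra and Serpinf1, 3) and smooth muscle (Myh11 and Cnn1, 3). Of the rest, barcodes of at least 20 S100a8 and S100a9 UMIs were called neutrophils and those of at least 3 Tyrobp and Fcer1g UMIs other myeloid. No clustering and no doublet caller was used; barcodes that met several rules, 617 to 2337 a library, were left out as an alternative. UMIs were summed per library and class. Levels have exact Poisson intervals, shares exact binomial (Clopper-Pearson) ones, and log2 ratios, with 0.5 UMIs added, conditional binomial ones. "Past 2 fold" needs 20 UMIs over both libraries. The interval code was tested on simulated data. The kept barcodes held 81.4% to 94.8% of the members' UMIs. Python 3.11.15, numpy 2.4.6, scipy 1.17.1 and pandas 2.3.3 were used.

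The members and lists were chosen with earlier results of these data known. All 10 members are named; of the pathway lists, the genes past 2 fold and the 2 of at least 50 UMIs with the largest ratios were eligible; of genes of like pattern, the 5 highest correlations. Gene locations are from GENCODE on GRCm38, which matched 99.8% of the 32285 gene identifiers. Alternatives are listed in the closing section.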

Additional observations from a re-analysis of the deposited data

How the results depend on the processing

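No paired analysis was possible because each group is 1 library and the labels carry no replicate number. The single libraries bound every ratio: the intervals cover counting error, not the spread between mice. In macrophages, 12 member ratios past 2 fold were recomputed under 10 alternatives each. All 120 kept their direction and 110 stayed past 2 fold, and in fibroblasts all 30 of 30 did both. Among the 12 macrophage ratios are those of Il6 in LysM-DKO western, where Il6 had 0 UMIs and the 0.5 UMIs added set their size. Against WT western Il6 was at least 1.20-fold lower at the limit of 3 counts, so staying past 2 fold there carries little weight. The counts of members past 2 fold in macrophages stayed within 1.5 times, and their medians within the counting intervals, in 80 of 96 recomputations; the cause of the other shifts was not tested, except where the alternative leaves fewer genes or barcodes. For LysM-DKO over WT on western diet 3 members were past 2 fold, or 2 with Il6 at the limit of 3 counts. The number was 0 with a C1q sum of at least 10 and 1 without barcodes of 2 or more class rules. It was 5 with equal weight for each barcode and 1 without the top barcode of the gene. The median of this comparison was 0.46. It was 0.59 with at most 5% mitochondrial UMIs or a C1q sum of at least 3, and 0.33 with a C1q sum of at least 10. It was 0.31 without barcodes of 2 or more class rules, 0.61 with equal weight and 0.55 with at least 50 UMIs per gene. For LysM-DKO over WT on normal diet the number was 1, and 0 with equal weight. For western over normal in WT the median was -1.39, and -1.67 with a C1q sum of at least 3, -1.64 with median-ratio scaling and -1.04 with equal weight. For western over normal in LysM-DKO the number was 2, and 1 without barcodes of 2 or more class rules or with at least 50 UMIs per gene.

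Sign changes among values past 2 fold concerned the foam-gene split, the endothelial class and the smooth muscle class. Without foam genes, Il1b LysM-DKO over WT on normal diet (1.57) was -0.25 with a C1q sum of at least 3 and -0.89 without barcodes of 2 or more class rules, and western over normal in WT it (1.75) was -0.49 with a C1q sum of at least 3. Western over normal in LysM-DKO (-1.28) it was 1.23 without barcodes of 2 or more class rules and 0.051 with a foam gene sum of at least 4. Il1rn there, western over normal in WT (-1.03), was 4.48 without barcodes of 2 or more class rules. With foam genes, Il1b LysM-DKO over WT on normal diet (-1.11) was 0.26 without barcodes of 2 or more class rules, 5.19 with a foam gene sum of at least 4 and 0.74 without the top barcode; Ptgs2 (-1.17) was 1.995 with a foam gene sum of at least 4. Il1b western over normal in WT (-1.60) was 3.67 with a foam gene sum of at least 4 and 1.47 without the top barcode. Endothelial Il6, LysM-DKO over WT on normal diet, was -0.12 without barcodes of 2 or more class rules, and Il1b in the whole smooth muscle class (1.05) was -0.25 without its barcodes with myeloid genes, an alternative chosen after seeing the data, as was leaving out the top barcode. Thinning to 1000 UMIs gave no value for barcodes of 500 UMIs, so that alternative was not run for the shares.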
